A study of Capra hircus with 3 samples.

Results

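The cells described here are the early hair shaft cells of the E120 library, the latest of 3 stages in a single-cell atlas of fetal goat dorsal skin. They were selected on measured expression. CP10K is a gene's share of the unique molecular identifiers (UMIs, one per captured transcript molecule) of a cell, scaled to 10000. A cell was taken as early hair shaft when KRT35 and KRT85 together reached at least 100 CP10K, exceeded the sum of the inner root sheath keratins KRT25, KRT27, KRT28, KRT71 and KRT73, and FABP9, GPRC5D and KRT84 together stayed below 40 CP10K. This gave 1771 of the 6896 E120 cells, or 25.7% (exact binomial 95% interval 24.7 to 26.7%), of 20676 cells in all. Because 10 genes chose the cells, the levels of those 10 genes are given as a description only, and no difference between groups of cells was tested.

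The animals were fetuses of the Northern Shaanxi White Cashmere Goat at embryonic day 60, 90 and 120, with no treatment named in the labels. Each stage is 1 library that mixes cells of 2 or more fetuses, so the spread between fetuses is unknown. The study's design text places these days in follicle induction, organogenesis and cytodifferentiation. At E60 and E90 whole pieces of skin were dissociated, whereas at E120 hair follicles were first picked out of the digested skin with forceps and pooled, so the makeup of the E120 library also carries that isolation step.

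In a growing follicle, matrix cells at the base divide next to the dermal papilla, leave the cycle as they move up, and turn into the concentric layers of the inner root sheath and of the hair shaft, which consists of cuticle, cortex and, in coarse fibres, medulla. Shaft cells build keratin filaments from paired type I and type II hair keratins. KRT35 (type I) and KRT85 (type II) are among the earliest of these to appear, and keratin-associated proteins that crosslink the filaments follow. HOXC13 and LEF1 are transcription factors known to act upstream of hair keratin genes, LEF1 as a nuclear partner of WNT signalling.

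The summed KRT35 and KRT85 level of the members ran from 100 to 882 CP10K with a median of 258. The keratin minimum did not fall in a gap between cells. Just above it, 127 members lay between 100 and 120 CP10K. Just below it, 128 other cells that met the remaining conditions lay between 80 and 100 CP10K. Of 1982 cells at or above the minimum, 6 did not exceed their inner root sheath keratins and 205 had 40 CP10K or more of the late genes, and these 205 are called late shaft cells below. Near that limit, 44 members held 30 to 40 CP10K of FABP9, GPRC5D and KRT84, and 34 late shaft cells held 40 to 50. Inner root sheath cells, taken as at least 100 CP10K of the 5 inner root sheath keratins and no less than KRT35 plus KRT85, numbered 580. No E60 cell (0 of 6849, with an approximate upper limit of 0.0438%) and no E90 cell (0 of 6931, approximate upper limit 0.0433%) met the rule.

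**Figure D1:**
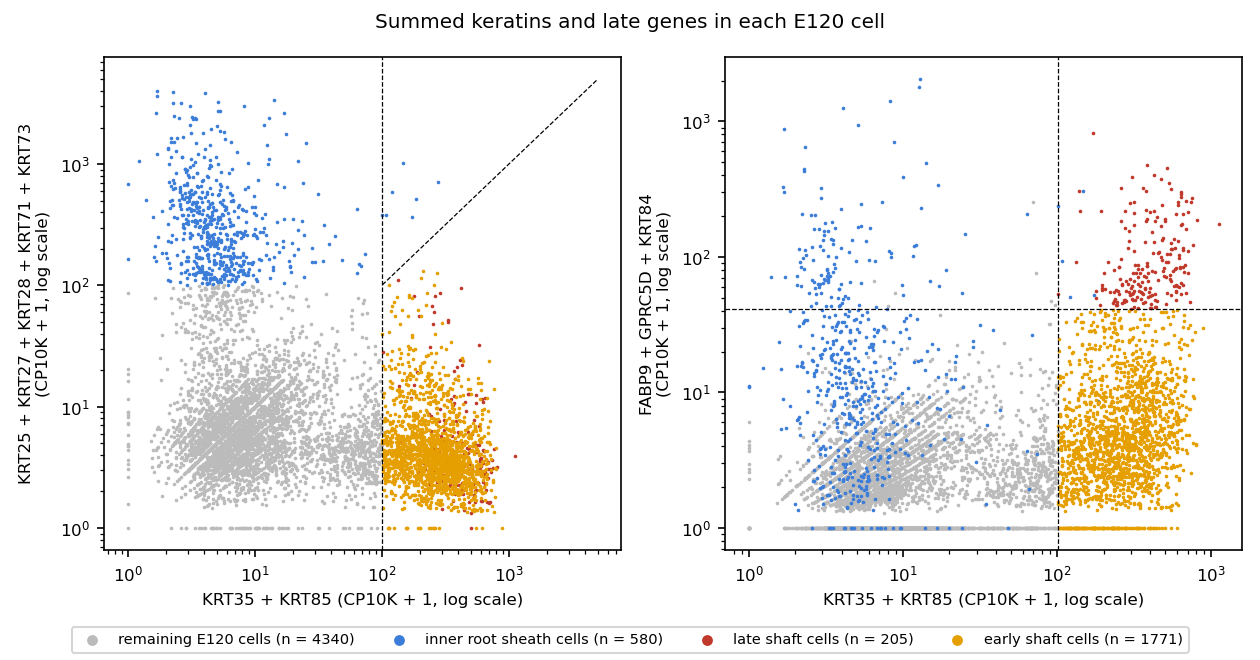
Each point is 1 E120 cell. The horizontal axis is KRT35 plus KRT85 and the vertical axis is the sum of the 5 inner root sheath keratins (left) or of FABP9, GPRC5D and KRT84 (right), all in CP10K plus 1 on log scales. Dashed lines mark the limits of 100 and 40 CP10K and, on the left, equal sums. The axes are the sums that define the groups, so the borders between the 1771 early shaft, 205 late shaft and 580 inner root sheath cells are set by the rule.

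The members held 29274327 UMIs, and the median member had 17182 UMIs from 2481 genes, against 11745 UMIs from 2199 genes in the other 5125 E120 cells. Mitochondrial transcripts took a median of 5.62% of UMIs in members (0.0895 to 57.0%) and 5.09% in the others. Among the 6% of E120 cells with the highest doublet scores were 125 members (7.06% of them), which were kept. Of the members' barcodes, 2 also occurred at E60 and 6 at E90. Shaft keratin RNA was also found outside shaft cells. After each cell was thinned to 2000 UMIs, KRT35 was found in 52.6% of 403 endothelial cells, which should lack it, and in 99.7% of members. Median depths before thinning were 6430 and 17182 UMIs. Whether this RNA was free in the library or came from doublets was not tested. The median KRT35 plus KRT85 level of endothelial cells was 7.06 CP10K, and 2 of them reached 100. The inner root sheath keratins, which the rule used, had a median of 2.77 CP10K in members and 5.67 CP10K in endothelial cells, but 193 members (10.9%) held 10 CP10K or more, up to 130 CP10K.

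DAPL1 and HS3ST2 are markers named with the label, and the rule did not use them. They were named with earlier results of these data known, so their levels are a description and not an independent check. DAPL1, a small death-associated-protein-like protein, was found in 93.1% of thinned members, 28.5% of thinned other cells and 17.9% of thinned endothelial cells. HS3ST2, which adds 3-O-sulfate groups to heparan sulfate, was found in 48.3%, 5.40% and 6.20%. Whether the shares in endothelial cells come from free RNA, doublets or expression was not tested. The HS3ST2 share of the other E120 cells was no higher than that of endothelial cells. Both markers were found in a larger share of members than of endothelial cells at equal depth. Without thinning, median DAPL1 per cell was 26.1 CP10K in members, 9.23 CP10K in late shaft and 5.03 CP10K in inner root sheath cells. Median HS3ST2 was 3.38, 0.505 and 0 CP10K in the same order. Markers of other skin cells were low: the 15 dermal papilla genes in the table summed to 22.1 CPM (counts of a group scaled to a total of 1000000) in members and 381 CPM in other E120 cells, with CORIN and TWIST2 at 0 in members. The 9 endothelial genes summed to 8.03 CPM in members and 2239 CPM in endothelial cells. The 9 melanocyte genes summed to 5.47 CPM with MLANA, TYRP1, TYR and GPR143 at 0, and the 12 myeloid and mast cell genes to 4.30 CPM with CD74, CSF1R, AIF1 and TYROBP at 0.

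Against the other E120 cells, early shaft cells carried a short list of strongly elevated transcripts and a long list of lowered ones. Of 3792 genes that reached 20 CPM in whichever group was higher, 86 (2.27%) were at least 2-fold higher in members and 552 (14.6%) at least 2-fold lower, on the log2 ratio of CPM plus 1. The median over all these genes was -0.14. These counts include genes of the rule, whose differences the selection fixed, and without them they were 84 and 545.

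ALOX15B, a lipoxygenase that oxidises arachidonic acid, had 377 CPM in members (95% counting interval 371 to 385) and 28.3 CPM in other E120 cells (27.0 to 29.6), a ratio of 13.3. HS3ST2 had 391 CPM against 36.5 CPM, a ratio of 10.7. HEPHL1, a copper-dependent ferroxidase, had 233 CPM against 24.0 CPM, a ratio of 9.73. Intervals cover counting error only, and in each of these genes those of the groups lay far apart. MGST3, a microsomal glutathione transferase, was by count the most abundant gene of the list, at 7072 CPM against 1369 CPM. Per cell, the members' MGST3 level had a median of 64.3 CP10K and a 10th percentile of 26.7 CP10K, still above the median of 6.99 CP10K in the others. DAPL1 followed with 2787 against 317 CPM, and its per-cell median was 26.1 CP10K in members and 0.782 CP10K in the others. SELENBP1, a selenium-binding methanethiol oxidase, had 526 against 116 CPM.

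TUBA4A, an alpha-tubulin, had 1747 against 696 CPM, and TTLL7, a tubulin polyglutamylase, had 182 against 50.1 CPM. HSPB8, a small heat shock protein, had 982 against 299 CPM, and MT4, the metallothionein of stratified epithelia, had 292 against 116 CPM. GNMT, which methylates glycine, had 236 against 62.9 CPM, ASS1, of the urea cycle, 175 against 58.9 CPM, and DBI, an acyl-CoA binding protein, 837 against 343 CPM. PDCD4, an inhibitor of translation initiation, had 460 against 119 CPM. Per cell, late shaft cells had higher medians than members of HSPB8 (11.3 against 7.90 CP10K), DBI (10.9 against 7.80 CP10K) and MT4 (5.65 against 1.29 CP10K). The medians of TUBA4A, TTLL7, GNMT, ASS1 and PDCD4 were higher in members. The anaphase-promoting complex subunit gene ANAPC5 had 105 CPM in members and between 11.4 and 23.6 CPM in other, late shaft, inner root sheath and endothelial cells. TRIM29, EFHD1, FAM129A, TNFAIP8L3 and ENDOD1 completed the 20 genes furthest above the others, each at 111 to 388 CPM in members.

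The 10 genes furthest below belong to other cells of the skin. KRT14, the type I keratin of basal and outer root sheath cells, had 35.8 CPM in members and 787 CPM in the others, and KRT17 had 41.7 against 837 CPM. SBSN, a suprabasal secreted protein, had 21.9 against 623 CPM and was at 2780 CPM in inner root sheath cells. GATA3, an inner root sheath regulator, had 16.6 against 248 CPM and 754 CPM in inner root sheath cells. The mesenchymal and vascular transcripts VIM (66.7 against 979 CPM), SPARC (10.3 against 214 CPM), CLEC3B and IGFBP7 were among them. SERPINH1 and the chemokine gene CXCL14 (64.0 against 1060 CPM) made up the rest. After thinning, SERPINH1 was found in 39.4% of the other cells and 92.1% of endothelial cells. With the top 6% of doublet scores left out, these 10 genes lay further below, for example VIM at a log2 ratio of -5.21 in place of -3.86, GATA3 at -4.90 in place of -3.83 and KRT14 at -5.39 in place of -4.42.

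**Figure D2:**
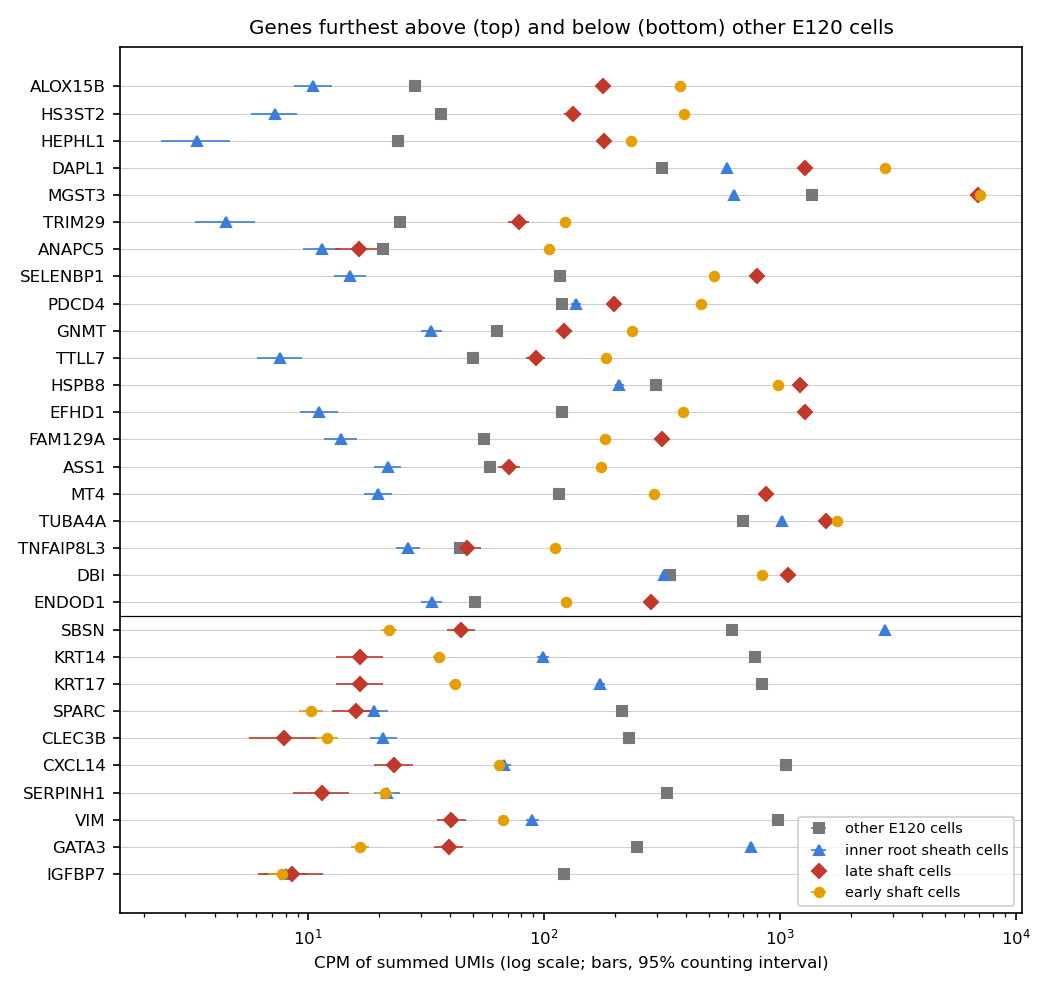
CPM of summed UMIs on a log scale for the 20 genes furthest above and the 10 furthest below other E120 cells, with 95% counting intervals as bars. Circles are early shaft, diamonds late shaft, triangles inner root sheath and squares other E120 cells. MGST3 sits at 7072 and 6937 CPM in early and late shaft cells and at 637 CPM in inner root sheath cells. EFHD1, MT4 and ENDOD1 lie further right in late than in early shaft cells.

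The transcription factors listed for the shaft included higher and lower genes. Of 27 in the table, 14 passed the 20 CPM minimum against other E120 cells, and 3 were at least 2-fold higher and 5 lower, with a median log2 ratio of -0.63 beside -0.14 for all genes compared, of which 2.27% were higher and 14.6% lower. The same background holds for the lists that follow. HOXC13 was higher, at 590 CPM (582 to 599) in members, 248 CPM in other E120 cells and 27.9 CPM in inner root sheath cells. LEF1 was higher too, at 309 CPM against 130 and 60.3 CPM, as was KLF5, a factor of differentiating epithelia, at 131 against 60.5 CPM. The lower factors were GATA3, CUX1 (148 against 343 CPM), PRDM1 (19.1 against 74.4 CPM), NFIX (18.0 against 54.0 CPM) and DLX4 (16.0 against 49.1 CPM). MSX1, a matrix homeobox factor, had 188 CPM in members and 280 CPM in the others, within the 2-fold limit.

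LEF1 was also the single WNT gene of 10 compared that was at least 2-fold higher, and 4 were lower: WNT5A (34.2 against 94.1 CPM), the receptor ligase gene ZNRF3 (16.0 against 40.3 CPM), the secreted inhibitor gene WIF1 (4.33 against 81.0 CPM) and the receptor gene FZD10 (18.8 against 59.7 CPM). AXIN2, a feedback target of the pathway, had 30.1 against 26.8 CPM. Among 11 BMP and TGF-beta genes, 0 were higher and 3 lower, which were BMP2, ID4 and FST. ID1, a BMP target that blocks DNA binding of helix-loop-helix factors, was abundant at 1557 against 1853 CPM, and the pseudoreceptor gene BAMBI had 678 against 592 CPM. Of 5 Notch genes, JAG2 was lower (7.99 against 93.3 CPM), and JAG1, a ligand, had 454 against 254 CPM, short of 2-fold. Of 4 hedgehog and ectodysplasin genes 1 was lower, the ligand gene SHH (2.80 against 43.3 CPM).

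Among structural groups, DSG4, the desmoglein of the hair shaft, was the 1 higher desmosome and junction gene of 8 (30.4 against 11.4 CPM), and DSC1 the 1 lower (23.8 against 73.9 CPM). Cornification and crosslinking genes split into 2 higher, SELENBP1 and HEPHL1, and 7 lower of 11, among them the deiminase gene PADI3 (10.5 against 117 CPM) and the protease inhibitor gene CST6 (210 against 574 CPM). All 4 suprabasal, 4 of 5 basal and all 4 retinoid genes compared were at least 2-fold lower. Of 9 protein synthesis factors, 0 passed 2-fold either way, and EEF1A1 had 1102 against 1113 CPM. KRT36, the 1 hair keratin outside the rule that was compared, was higher (21.9 against 5.82 CPM), KRT75 and KRT17 of the companion layer were lower, and of 4 heparan sulfate and proteoglycan genes HS3ST2 was higher and DCN lower. Of 13 metallothionein and stress genes MT4 was higher and 5 were lower, among them MT2A (30.0 against 85.6 CPM) and MT3 (31.2 against 161 CPM). Of 7 cell cycle arrest genes CDKN1B and CDKN1C were lower, of 3 polyamine and amino acid supply genes 0 passed 2-fold, and of 2 mural genes ACTA2 was lower. All 8 dermal papilla genes and all 3 endothelial genes compared were lower. Counts of listed genes that passed the 20 CPM minimum depend on the group in which each gene is high, and are descriptions.

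Cell cycle transcripts were low in early shaft cells. Of 12 genes of G2 and mitosis and 8 of S phase compared with other E120 cells, all were at least 2-fold lower, and the 15 G2 and mitosis genes in the table summed to 326 CPM in members, 1242 CPM in the others, 401 CPM in inner root sheath and 51.4 CPM in late shaft cells. Cells with at least 2 UMIs of these genes after thinning to 2000 UMIs made up 9.49% of members (8.16 to 10.9%), 29.6% of other E120 cells, 9.66% of inner root sheath cells and 0.488% of late shaft cells. Without thinning the shares were 24.6%, 49.2%, 30.3% and 15.6%.

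Compared with inner root sheath cells, the other differentiating layer of the library, early shaft cells were at least 2-fold higher in 287 of 3397 genes (8.45%) and lower in 247 (7.27%), with a median log2 ratio of 0.08. HEPHL1 (233 against 3.38 CPM), HS3ST2 (391 against 7.21 CPM), ALOX15B (377 against 10.5 CPM), SELENBP1 (526 against 15.1 CPM), EFHD1 (388 against 11.1 CPM), TRIM29, TTLL7, HOXC13, CA2 and the prohormone convertase gene PCSK1 (111 against 5.30 CPM) were furthest above. Furthest below were SBSN, the calcium sensor gene CHP2 (1.57 against 294 CPM), KRT1, the zinc transporter gene SLC39A8, the cornification caspase gene CASP14 (1.09 against 117 CPM), the retinol acyltransferase gene LRAT (5.29 against 341 CPM), GATA3, FGF2, PADI3 and the EGF receptor ligand gene AREG. FABP9 is in the late part of the rule, yet it was at 5478 CPM in inner root sheath cells and at 421 CPM in late shaft cells. The summed G2 and mitosis genes differed less between these layers, and 0 of the 5 compared passed 2-fold either way.

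Compared with late shaft cells, early shaft cells were at least 2-fold higher in 395 of 3331 genes (11.9%) and lower in 235 (7.05%). The median log2 ratio was 0.27, and scaling by that median turned the split to 221 higher and 338 lower. KITLG, the ligand of the KIT receptor on melanocytes, led the genes above late shaft cells at 290 against 26.6 CPM, followed by MSX1 at 188 against 24.9 CPM. HBAI, a haemoglobin gene, ranked between them, but 3 cells held 87.6% of its 4177 UMIs in members. ID1 had 1557 against 395 CPM, GPNMB, a transmembrane glycoprotein gene, 869 against 195 CPM, and ANAPC5 105 against 16.4 CPM. All 5 G2 and mitosis genes compared were higher in early cells, as were NOTCH3, JAG1 and HEY1 of 4 Notch genes. The other signalling lists went both ways. Of 10 BMP and TGF-beta genes, ID1, ID3, ID4 and SMAD5 were higher in early cells and BMP2 (11.3 against 62.2 CPM) and BAMBI (678 against 1820 CPM) lower. Of 7 WNT genes, LEF1 and WNT5A were higher and FZD10 lower (18.8 against 64.1 CPM). Of 12 shaft factors, MSX1, LEF1 and DLX2 were higher and DLX5 (8.30 against 20.7 CPM), PRDM1 (19.1 against 131 CPM) and GATA3 (16.6 against 39.4 CPM) lower. HOXC13, at 590 against 527 CPM, and MGST3, at 7072 against 6937 CPM, were close to equal.

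Summed as a whole, late shaft cells in turn held keratin-associated and late keratin transcripts that were low in early cells. This was not a trait of every late cell. In late cells with KRT84 above GPRC5D, described below, KRTAP11-1, KRT33A and LAP3 were not higher than in early cells. KRTAP3-1 had 0.991 CPM in early and 121 CPM in late cells, KRTAP11-1 10.0 and 434 CPM, and KRT33A, a type I hair keratin, 3.01 and 178 CPM. LY6G6D, of the LY6 family, had 234 and 3377 CPM, SLC40A1, the iron exporter ferroportin, 6.90 and 357 CPM, and TUBB2B, a beta-tubulin, 6.83 and 331 CPM. LAP3, a leucine aminopeptidase, had 516 and 4351 CPM. The unnamed gene ENSCHIG00000022057 had 1896 and 42026 CPM.

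The members were not uniform in their keratins. They were divided into terciles by KRT35 plus KRT85, with 590 cells from 100 to 200 CP10K, 590 up to 326 CP10K and 591 above, and this order is by genes of the rule. Of 3421 genes, 102 (2.98%) were at least 2-fold higher in the high than in the low tercile and 308 (9.00%) lower, or 151 and 193 after scaling by the median log2 ratio of -0.23. Transcripts of dividing cells were furthest below in the high tercile. CENPF, a kinetochore gene, had 276, 56.7 and 7.07 CPM in the low, middle and high tercile, TOP2A, the replication-linked topoisomerase, 160, 37.6 and 6.72 CPM, and the histone gene H2AFZ 1230, 481 and 240 CPM. Cells with at least 2 thinned UMIs of G2 and mitosis genes were 23.1% of the low tercile (19.7 to 26.7%), 4.58% of the middle (3.04 to 6.59%) and 0.846% of the high (0.275 to 1.96%), and 42.9%, 19.2% and 11.7% without thinning.

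The upstream factors HOXC13 and LEF1, and the WNT target AXIN2, were nearly level. The summed shaft transcription factors as a list were lower with more keratin, at 2035, 1915 and 1752 CPM. HOXC13 had 567, 585 and 612 CPM, LEF1 291, 326 and 308 CPM, and AXIN2 31.0, 29.5 and 29.9 CPM from the low to the high tercile. Other signalling genes went both ways. Lower with more keratin were MSX1 with 278, 197 and 117 CPM, JAG1 with 589, 473 and 341 CPM and ID1 with 1842, 1656 and 1270 CPM. BAMBI was higher with more keratin, at a Pearson r of 0.47 with the log keratin sum over members.

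A group of transcripts was highest in the cells with most keratin. EFHD1, a mitochondrial calcium-binding protein gene, had 64.1, 258 and 729 CPM, FABP3.1, named so in the table and of the fatty acid binding family, 502, 1084 and 3518 CPM, and CA2, a carbonic anhydrase gene, 61.2, 200 and 412 CPM. TIMP2, a metalloproteinase inhibitor gene, had 8.90, 30.1 and 107 CPM, LAP3 185, 282 and 951 CPM and the gasdermin gene GSDMA 29.5, 84.5 and 199 CPM. DAPL1 had 1528, 2764 and 3708 CPM and ALOX15B 197, 378 and 507 CPM. SELENBP1 ran the other way with 630, 606 and 384 CPM, and HS3ST2 had no order with 363, 468 and 347 CPM.

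Median depth also differed between the terciles, at 14118, 17177 and 20479 UMIs, while median mitochondrial shares were 5.63%, 5.63% and 5.62%. The summed dermal papilla genes were at 43.9, 20.4 and 7.94 CPM and the inner root sheath genes at 666, 517 and 258 CPM, and their part in the differences between terciles was not tested.

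**Figure D3:**
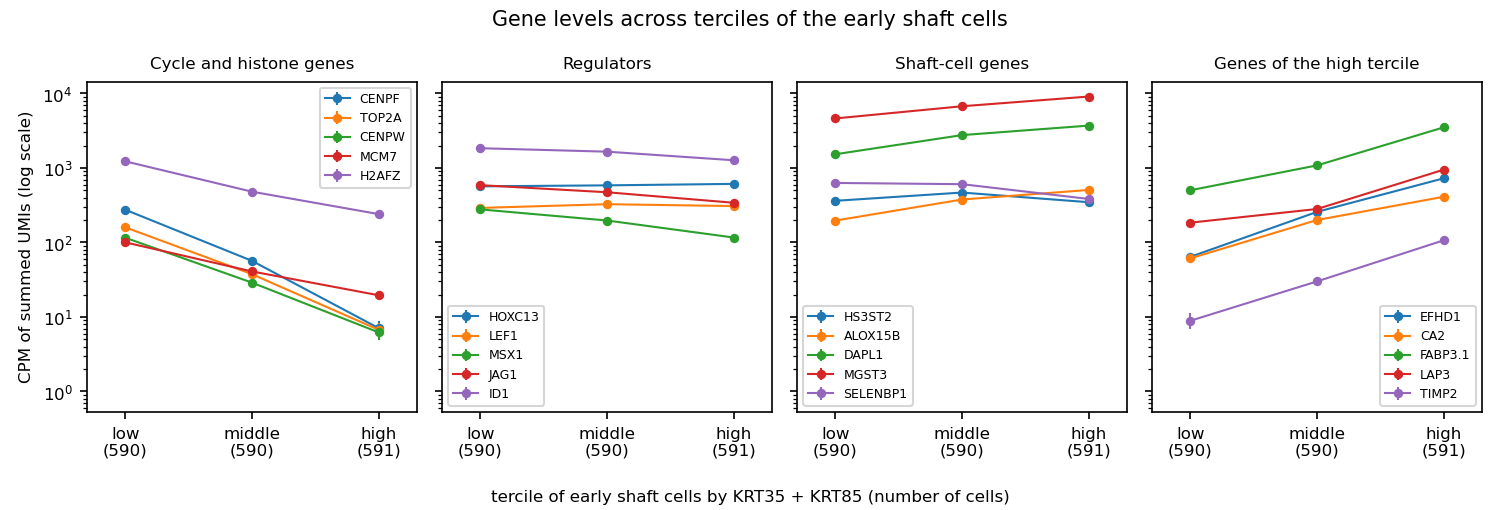
CPM of summed UMIs on a log scale in the low, middle and high tercile of early shaft cells by KRT35 plus KRT85 (590, 590 and 591 cells), with 95% counting intervals as bars where larger than the points. Among the genes shown, CENPF (276 and 7.07 CPM), TOP2A and CENPW differ most between low and high tercile, HOXC13 and LEF1 are nearly level, and EFHD1, CA2, FABP3.1, LAP3 and TIMP2 are highest in the high tercile.

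Over the 1771 members the Pearson correlation of the log CP10K values of KRT35 and KRT85 was -0.03. Members were chosen on the sum of this pair, so a member low in either gene had to be high in the other. Both values of a cell also share its total, so the correlation cannot show whether the pair goes together. KRT35 had a median of 140 CP10K (1.07 to 509) and KRT85 a median of 102 CP10K (4.78 to 800). KRT85 made up a median of 38.5% of the pair's UMIs, from 3.27% to 99.5%, although capture can differ between genes, so the share is an order of cells and not a protein ratio. Between the tercile richest in KRT85 and the tercile richest in KRT35, 131 of 3378 genes (3.88%) were at least 2-fold higher and 268 (7.93%) lower, or 185 and 161 after scaling by the median of -0.23. This division was chosen after the data were seen, and the share itself correlated with the log keratin sum at 0.54, so it overlaps with the terciles of the sum.

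The genes at the KRT85-rich end were EFHD1, at 22.5 CPM in the KRT35-rich and 916 CPM in the KRT85-rich tercile, GNG2, a G-protein gamma subunit gene, at 1.35 and 102 CPM, FABP3.1 at 252 and 4243 CPM, CA2 at 33.8 and 517 CPM, and LAP3 at 160 and 1084 CPM. Genes at the KRT35-rich end included SELENBP1 at 737 and 290 CPM, MSX1 at 281 and 101 CPM, JAG1 at 605 and 291 CPM and the growth regulator gene MYCN at 105 and 26.6 CPM. HBAI and HBAII were also higher at the KRT85-rich end, and the few cells that hold most HBAI UMIs are described above.

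To narrow the range of the keratin sum, its middle tercile was divided at the median KRT85 share into sets of 295 cells. The KRT35-richer and KRT85-richer sets still differed in median keratin sum (244 and 270 CP10K) and median depth (16223 and 18253 UMIs). The part of these differences in what follows was not tested. Cells with G2 and mitosis UMIs made up 4.41% of the KRT35-richer (2.37 to 7.42%) and 4.75% of the KRT85-richer set (2.62 to 7.83%). These intervals overlap but cover counting error only, so they cannot show that the shares are equal. In the same order, EFHD1 had 52.3 and 450 CPM, CA2 74.5 and 318 CPM and FABP3.1 334 and 1785 CPM. SELENBP1 had 761 and 462 CPM, and KRT84, of the rule, 645 and 227 CPM.

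**Figure D4:**
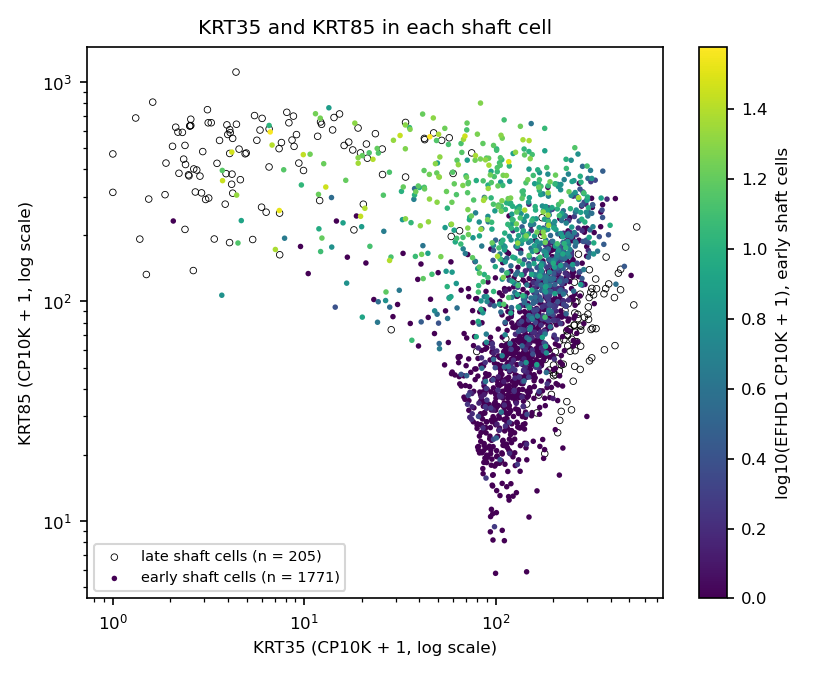
KRT35 against KRT85 in each shaft cell, in CP10K plus 1 on log scales. Filled points are the 1771 early shaft cells, coloured by log10 of EFHD1 CP10K plus 1, and open circles are the 205 late shaft cells. EFHD1 is highest in early cells with much KRT85 and little KRT35. Late cells gather at both ends, some with KRT35 of a few CP10K and some above 200 CP10K.

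The late genes themselves marked different cells at these ends. Sets were formed after the data were seen, from genes of the rule, at 10 CP10K: 172 members had KRT84, a type II keratin, at or above this level and GPRC5D, an orphan receptor known from keratinising cells, below it. Another 64 had GPRC5D but not KRT84, 1 had both and 1534 neither. The rule held the sum of FABP9, GPRC5D and KRT84 below 40 CP10K, which limits in advance how many members can be high in both. The count with both therefore cannot show that KRT84 and GPRC5D exclude each other. The 1 cell with both had 29.8% mitochondrial UMIs. The KRT84 set had a median KRT85 share of 32.5% and the GPRC5D set of 90.0%. SELENBP1 had 1339 CPM in the KRT84 set, 54.3 CPM in the GPRC5D set and 451 CPM in cells with neither. LAP3 had 235, 2840 and 418 CPM in the same order, EFHD1 89.0, 1644 and 353 CPM, FABP3.1 306, 9156 and 1653 CPM and LY6G6D 203, 1056 and 191 CPM.

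Regulators differed between the sets as well. PRDM1, a transcriptional repressor, had 6.15 CPM in the KRT84 set and 76.2 CPM in the GPRC5D set, DSG4 10.7 and 142 CPM, and BMP2 3.23 and 41.6 CPM. WNT10A, a ligand of the WNT pathway, had 68.3 and 10.6 CPM, JAG1 555 and 141 CPM and MYCN 85.7 and 8.47 CPM. HOXC13, at 605 and 502 CPM, and LEF1, at 240 and 233 CPM, were present in both. The cells of the GPRC5D set were deeper, with a median of 26457 UMIs against 18111 UMIs, and its part in these differences was not tested. With cells limited to at least 1000 genes and at most 10% mitochondrial UMIs, 154 and 52 cells remained, and SELENBP1 had 1348 and 53.9 CPM and LAP3 236 and 2866 CPM.

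The same division ran through the late shaft cells. KRT84 exceeded GPRC5D in 97 of them, with a median KRT85 share of 22.6%, and GPRC5D exceeded KRT84 in 108, with a median of 99.1%. SELENBP1 had 1925 CPM in the former and 39.0 CPM in the latter, and KRT35 26049 and 1165 CPM. KRTAP11-1 had 6.16 and 724 CPM, KRT33A 1.54 and 298 CPM and LAP3 382 and 7042 CPM. JAG1 had 452 and 57.1 CPM. Levels of late shaft cells as a whole, as used in the comparison above, are therefore averages over cells that differ in these genes. A set of 47 members with KRT35 of 20 CP10K or less had a KRT85 share of 96.6% and 3335 CPM of LAP3, but was shallow, with a median of 5873 UMIs.

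Ordered by the summed late genes, the cells ran from 130 members at 0 through 1335 above 0 to under 10 CP10K and 306 from 10 to under 40 CP10K, to late shaft cells of 40 to under 160 (158 cells) and 160 CP10K or more (47 cells). KITLG had 349, 318, 160, 32.3 and 9.14 CPM along these bins, MSX1 320, 206, 82.6 and 27.1 CPM with 18.3 CPM in the last, and ID1 2279, 1633, 1054, 415 and 335 CPM. These genes were thus already lower in the early cells nearest to the limit. LAP3 had 277, 422, 965, 2767 and 9111 CPM. SELENBP1 had 433, 450, 861, 1053 and 44.8 CPM, and KRT84 itself 0, 150, 1244, 3131 and 129 CPM, so both dropped in the bin of highest late genes, where GPRC5D was at 23852 CPM. Median depth along the bins was 12624, 17228, 18298, 24813 and 26999 UMIs.

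Over all 6896 E120 cells, the 10 of 739 ranked genes whose log CP10K followed KRT35 plus KRT85 most closely were MGST3 (Pearson r = 0.84), DAPL1 (0.76), ALOX15B (0.75), HS3ST2 (0.71), SELENBP1 (0.68), HSPB8 (0.67), DBI (0.59), TUBA4A (0.55), HOXC13 (0.55) and GNMT (0.52). The cells share 1 library and differ in depth, and the values are descriptions. Within the 1771 members the correlations were 0.55, 0.55 and 0.50 for MGST3, DAPL1 and ALOX15B and 0.56 for TUBA4A, but 0.04 for HS3ST2 and -0.11 for SELENBP1. HS3ST2 followed KRT35 in members (r = 0.42), and DAPL1 (0.54), EFHD1 (0.71) and FABP3.1 (0.59) followed KRT85. SELENBP1 went with KRT84 (0.41) and KRT35 (0.37), and EFHD1 with CA2 (0.53). HOXC13 and LEF1 showed little relation to each other (0.07).

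By variance over mean after thinning, the most variable gene among members was the unnamed gene ENSCHIG00000023338 (388), followed by HBAI (250). Without thinning, ENSCHIG00000023338 had a median of 0 CP10K in members, a 90th percentile of 0.986 CP10K and a highest value of 2916 CP10K. Its rank, like that of HBAI, thus rests on few cells. The 15 highest included 4 genes without a symbol, FABP3.1 (13.9) and 9 mitochondrial genes led by COX3 (63.1). COX3 correlated with COX1 at 0.92 over members, whose mitochondrial share of UMIs ran from 0.0895 to 57.0%. Of the members, 1485 had at least 1000 genes and at most 10% mitochondrial UMIs.

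Of the genes shown across the stages, some had no or few UMIs before E120 and others were already present. In whole libraries KRT35 had 0 UMIs at E60, 4.33 CPM at E90 and 5847 CPM at E120, and KRT85 0 UMIs, 19.7 CPM and 6796 CPM. HEPHL1 and MT4 had 0 UMIs at E60 and E90 (a floor of 3 UMIs is 0.0461 CPM at E60 and 0.0991 CPM at E90), against 89.5 and 171 CPM at E120. HOXC13 had 0 UMIs at E60, 12.4 CPM at E90 and 355 CPM at E120, DAPL1 0.646, 14.2 and 1091 CPM, and HSPB8 0.707, 84.1 and 513 CPM. MGST3 was present at all stages, at 600, 532 and 3157 CPM, as was DBI at 101, 49.7 and 498 CPM. HS3ST2 was higher at E60 (15 CPM) than at E90 (2.81 CPM) and reached 148 CPM at E120. Stage, fetus, dissociation and library cannot be told apart in these comparisons.

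**Figure D5:**
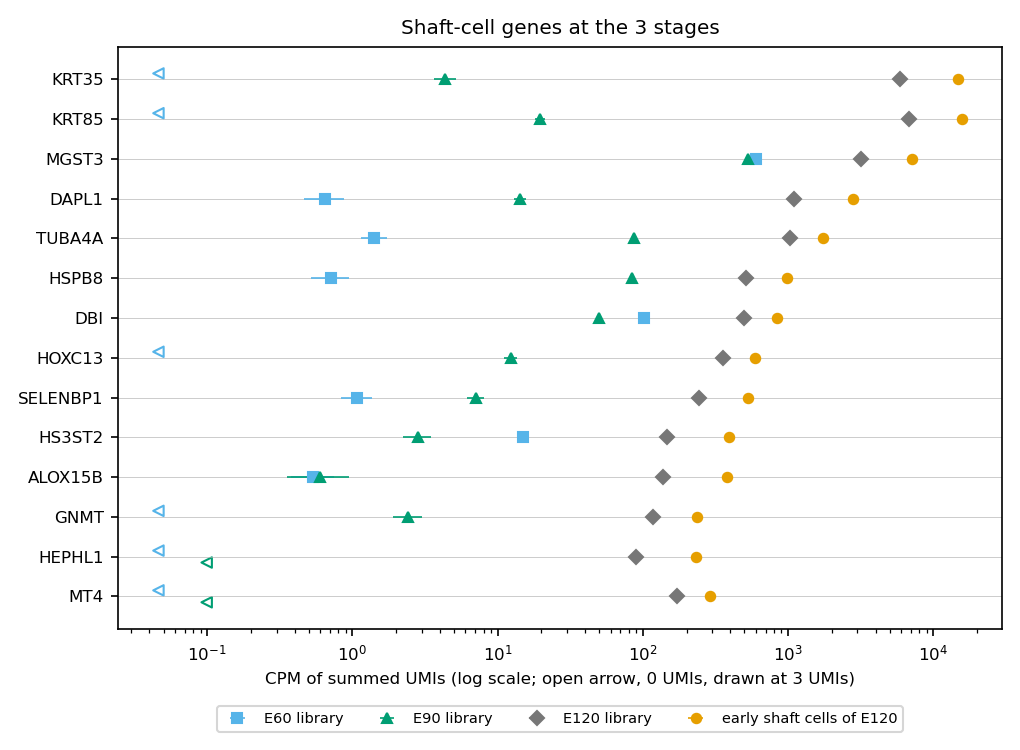
CPM of summed UMIs on a log scale for 14 genes in the whole E60, E90 and E120 libraries and in the early shaft cells of E120, with 95% counting intervals. Open arrows mark 0 UMIs and are drawn at the level of 3 UMIs. MGST3 and DBI are present at all 3 stages, whereas HEPHL1 and MT4 are at 0 UMIs at E60 and E90.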

How the data were processed

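Single-cell RNA of fetal goat skin was measured by droplet-based 3′ sequencing in 1 library per stage. The authors deposited 1 table of natural log values (natural log of 1 plus counts scaled to 10000 per cell, as the values themselves show). Cell Ranger 3.0.2 is named in the submitters' processing notes; the genome build, the annotation, the counting of reads shared by paralogs and the filters on cells are not given in the sources used here. KRT85, KRT84, KRT33A and KRTAP genes belong to families of related genes, so their counts are uncertain wherever reads are shared with relatives. The study states 19705 cells and the table holds 20676.

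UMIs were recovered by dividing each back-transformed value by the cell's smallest, and 100% came out whole within 0.01. Of 16739 genes, 12709 carried symbols, 11897 of them in RefSeq's gene list for assembly ARS1.2 (names only), and 4030 did not. UMIs were summed over the cells of each group and given as CPM with exact Poisson 95% intervals, and shares with exact binomial (Clopper-Pearson) ones. Both cover counting error only. The upper limits for the shares of cells meeting the rule at E60 and E90 are approximate and not exact binomial limits. With 1 library per stage, and cells not being replicates, no test was made. A floor of 3 UMIs was used for zeros. Shares of cells with a UMI and variance over mean used cells thinned to 2000 UMIs; every cell had more. Endothelial cells had at least 3 UMIs over 9 endothelial genes.

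The members, the 25 gene lists and the comparisons were chosen with earlier results of these data known. Named were, without the 10 genes of the rule, the 20 highest and 10 lowest log2 ratios of CPM plus 1 against other E120 cells and the 10 highest and 10 lowest against late shaft and inner root sheath cells, among genes with a symbol and at least 100 CPM in the higher group, the 15 most variable genes and the 10 genes most like the shaft keratins. Genes named within terciles, keratin balance and the KRT84 and GPRC5D sets, and those sets, were chosen after their values were seen. Doublets were scored against simulated pairs and kept. Scripts (Python 3.11.15, numpy 2.4.6, scipy 1.17.1, scikit-learn 1.9.0) were tested on simulated data. Alternatives covered the limits of the rule, cell and gene filters, doublets, weights, scaling, the added CPM and the comparator.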

Additional observations from a re-analysis of the deposited data

How the results depend on the processing

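The number of members ran from 1183 (keratin minimum of 200 CP10K) to 2152 (50 CP10K). All 30 genes named against other E120 cells kept their direction in all 330 values over 11 alternatives, and 29 stayed at least 2-fold apart in each; ENDOD1 had a log2 ratio of 0.96 at a keratin minimum of 50 CP10K. The largest move was 2.05 on the log2 scale, for EFHD1, from 1.69 to 3.74 once late shaft and inner root sheath cells left the comparator, where SBSN went from -4.77 to -3.08. Without the highest doublet scores IGFBP7 went from -3.81 to -4.86 and SPARC from -4.25 to -5.10. SELENBP1 ran from 1.47 (keratin minimum of 200 CP10K) to 3.08 (late gene limit of 80 CP10K). Counts of genes moved as well. Against late shaft cells, the number higher was 263 at a keratin minimum of 200 CP10K, 224 and 909 at late gene limits of 20 and 80 CP10K, 221 after scaling by the median ratio and 217 with 10 CPM added, and the number lower was 355 at the limit of 80 CP10K. Against other E120 cells, the number higher was 56 with 10 CPM added and 130 once late shaft and inner root sheath cells were left out of the comparator. With a filter of 100 CPM the counts higher and lower were 41 and 111 against other E120 cells, 83 and 77 against late shaft and 107 and 84 against inner root sheath cells; without a filter they were 156 and 2047, 1288 and 490, and 651 and 713. The cause was not tested beyond the number of genes each filter admits. When every cell weighed the same, 7 of 25 list sums stayed within their counting interval. Genes near 20 CPM rest on few UMIs in the late shaft sum. No paired analysis was possible because each stage was 1 library.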
